A study of Mus musculus with 30 samples.

Results

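The protocadherins are a large family of cadherin-related adhesion proteins, and 68 of the 16995 genes in the table of normalized values carry a symbol that begins with Pcdh. All 68 were used, with no filter of their own. They fell into 4 classes, 14 Pcdha genes, 21 Pcdhb genes, 22 Pcdhg genes and 11 genes that stand alone at their own loci (the single-locus genes). The values came from the intermediate laminae of spinal level C5/C6, dissected from the side of the cord that lost its corticospinal input (the stroke-denervated hemicord) in adult female C57BL/6 mice. The 29 animals with values were 5 sham-operated mice (labelled Ctrl) and mice with a photothrombotic stroke of the right sensorimotor cortex killed 4, 7, 14, 28 or 42 days post-injury (dpi), with 4 animals at 4 dpi and 5 at each other time point. Each library was made from ribosome-depleted total RNA of 1 animal. The day on which sham animals were killed is not given in the sources used here. The comparisons address which genes differed in the denervated gray matter at times chosen to cover recovery after stroke.

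Clustered protocadherins are encoded in 3 gene arrays that lie next to each other. In the Pcdha and Pcdhg arrays every gene has its own promoter and its own large variable exon, which is spliced to constant exons shared by the whole array, so the proteins differ outside the cell and share a common tail inside it. Pcdhb genes lack shared constant exons. Single neurons use a few of the alternative promoters, while the C-type genes at the ends of the Pcdha and Pcdhg arrays (Pcdhac1, Pcdhac2, Pcdhgc3, Pcdhgc4 and Pcdhgc5) follow other rules of expression. The proteins bind copies of themselves on neighbouring membranes and are known for self-avoidance of dendrites and axons and, for the Pcdhg array, for the survival of spinal interneurons. The single-locus genes include the delta-1 (Pcdh1, Pcdh7, Pcdh9, Pcdh11x) and delta-2 (Pcdh8, Pcdh10, Pcdh17, Pcdh18, Pcdh19) protocadherins, adhesion molecules of neuronal circuits, together with Pcdh15, a component of the tip links of hair cells, and Pcdh20.

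Promoter sequence was available from RefSeq for 9 of the 11 single-locus genes, as 10 windows from 250 bases before to 50 bases after an annotated start (build GRCm38.p6). A pair of windows is shown because these genes frame the single-locus results below: Pcdh15 rose at 28 dpi, and Pcdh9 had the highest level of the family with no difference at 28 dpi. The Pcdh15 window is chr10:73821617-73821916 on the plus strand, which lies inside the span of the gene in the gene annotation used for the table (start 73099342, end 74649737), and the Pcdh9 window, 1 of 2 for that gene, is chr14:93890630-93890929 on the minus strand. Capitals mark CGCT and CCCTC on either strand (read as AGCG and GAGGG on the other), where CCCTC and CGCT can share 1 base.
Pcdh15: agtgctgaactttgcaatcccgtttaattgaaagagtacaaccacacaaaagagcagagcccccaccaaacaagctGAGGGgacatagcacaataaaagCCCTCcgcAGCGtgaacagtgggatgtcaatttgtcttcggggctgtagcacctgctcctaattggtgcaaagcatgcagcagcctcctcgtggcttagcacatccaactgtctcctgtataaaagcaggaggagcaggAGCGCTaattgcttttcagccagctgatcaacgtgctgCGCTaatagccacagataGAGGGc
Pcdh9: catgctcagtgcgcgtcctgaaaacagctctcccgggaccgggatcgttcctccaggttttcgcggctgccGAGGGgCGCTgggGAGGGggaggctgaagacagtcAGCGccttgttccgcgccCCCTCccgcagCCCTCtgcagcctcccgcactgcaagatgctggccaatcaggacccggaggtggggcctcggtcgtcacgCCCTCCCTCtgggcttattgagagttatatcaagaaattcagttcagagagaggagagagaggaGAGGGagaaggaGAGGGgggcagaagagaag
CGCT occurred in all 10 windows and CCCTC in 8 of them, against 61.8% and 66.0% of all 32851 RefSeq windows of that length. The other Pcdh9 window, chr14:93890620-93890919, overlaps the shown one almost fully, so these 2 windows are nearly the same sequence counted again. TATAAA occurred in 2 windows, those of Pcdh15 and Pcdh8, against 13.6% of all windows. The Pcdh15 window held 50.7% G and C and the Pcdh9 window 62.7%, and the median over all windows was 52.7%.

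The clustered genes lie on chromosome 18 of the same build, in the order Pcdha (36930184 to 37187661), Pcdhb (37294812 to 37524479) and Pcdhg (37661793 to 37841873), all on the plus strand, and Pcdh1 lies beyond them on the minus strand. The 14 Pcdha genes end within 10 bases of each other and so do the 22 Pcdhg genes, because both arrays end in their constant exons. Between 44.9% and 70.2% of the 31-base words in the transcripts of a Pcdha gene occurred in another Pcdha gene, and between 27.3% and 67.5% for Pcdhg genes. For Pcdhb genes the range was 4.37% to 22.5%, with 17 of 21 genes annotated with single-exon transcripts only, and for single-locus genes it was at most 0.0386%. Reads from the shared words are assigned to a gene by estimation, so a value of 1 Pcdha or Pcdhg gene can borrow from its neighbours, and 41 members also shared at least 1% of their words with 1 of 7 other rows of the table. Counted against any other annotated gene, the largest share was 92.2% in Pcdha, 66.9% in Pcdhb and 99.4% in Pcdhg. For single-locus genes it was 20.7%, in Pcdh7. The symbol Pcdha11 stands for 2 rows, ENSMUSG00000007440 and ENSMUSG00000102206, and Pcdhgb8 is annotated as a polymorphic pseudogene. Pcdh12 and Pcdhb1 are annotated but were not analysed here.

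The tissue carried markers of neurons and glia. In sham animals the summed value of 8 neuron markers was 2251 to 2753, that of 5 astrocyte markers 2397 to 2930 and that of 4 oligodendrocyte markers 5639 to 8428, while 3 motor neuron markers summed to 14.6 to 39.1. Ribosomal RNA left in the libraries, read from the 18S gene Rn18s-rs5, stood at 30321 to 52929 in sham animals, above 150000 in 10 animals (4 of the 28 dpi group, 4 of the 42 dpi group and 2 of the 14 dpi group) and 44755 in the remaining 28 dpi animal, A4-1. In such bulk tissue, fewer cells of a type and less RNA per cell cannot be told apart.

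In sham animals the single-locus genes held the highest levels. Compared per kb of the longest transcript, which takes out gene length, the order of mean sham levels was led by Pcdh9 (48.3 per kb), Pcdh7 (25.4 per kb) and Pcdh10 (10.6 per kb), and their ranges over 5 animals overlapped neither each other nor the next gene. Pcdh17 (7.93 per kb), Pcdhgc3 (6.79 per kb), Pcdh11x (6.52 per kb) and Pcdhac2 (6.13 per kb) followed, each overlapping its neighbour within that group of 4. Of the 10 highest levels per kb, 8 belonged to single-locus genes and the other 2 were the C-type genes Pcdhgc3 and Pcdhac2. Below these the family formed a continuous series, and 63 of the 67 pairs of neighbours in the order overlapped in their sham ranges. The single-locus genes also reached down the series, with Pcdh18 at 1.31 per kb and Pcdh8 at 0.477 per kb, and the lowest levels were those of Pcdha8 (0.435 per kb) and Pcdha1 (0.373 per kb).

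**Figure D1:**
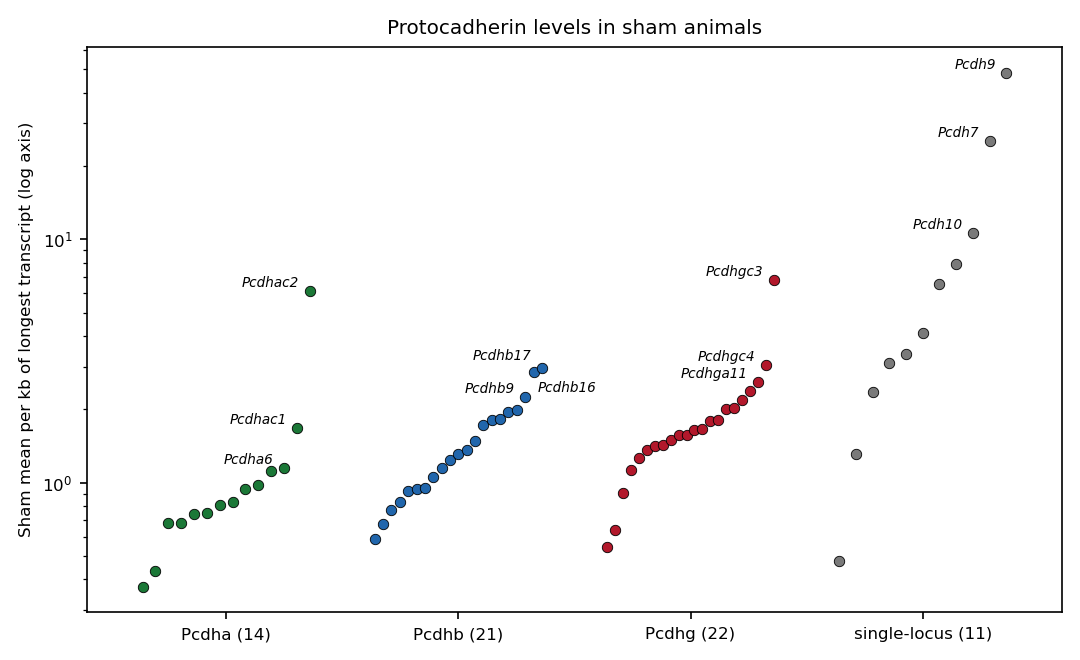
Mean sham value per kb of the longest transcript (log axis) for each protocadherin, with 1 point per gene, sorted within its class (number of genes in brackets). Pcdh9 at 48.3 and Pcdh7 at 25.4 stand above the other genes, and Pcdhac2 at 6.13 and Pcdhgc3 at 6.79 stand above the rest of the Pcdha and Pcdhg arrays.

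On the scale of normalized values, without division by length, Pcdh9 measured 315 ± 32.5 and Pcdh7 223 ± 7.87 in sham animals (SD, n = 5). Within the Pcdha array Pcdhac2 had 36.1 ± 4.82, Pcdhac1 9.10 ± 1.95 and Pcdha6 6.14 ± 1.56, and the lowest was Pcdha1 with 1.96 ± 0.730. Within the Pcdhb array Pcdhb16 (14.9 ± 1.73), Pcdhb19 (14.2 ± 2.49) and Pcdhb17 (13.7 ± 1.43) were highest and Pcdhb4 (2.18 ± 0.512) lowest. Within the Pcdhg array Pcdhgc3 had 31.8 ± 3.64, Pcdhgc4 15.2 ± 2.66 and Pcdhga11 12.4 ± 0.764, and Pcdhgb8 was lowest with 2.50 ± 2.34. With the C-type genes set aside, levels per kb ran from 0.373 to 1.14 over 12 Pcdha genes (median 0.778) and from 0.542 to 2.60 over 19 Pcdhg genes (median 1.57). The coefficient of variation over sham animals was 3.20% to 24.2% for single-locus genes and reached 37.2% for Pcdha genes and 93.7% for Pcdhg genes, the latter in Pcdhgb8.

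At 28 dpi genes of the Pcdhg array were higher than in sham animals. Of 68 members 59 had a higher mean than sham on the log2 scale, against 8378 of all 16995 genes. The median log2 difference from sham was 0.34 over Pcdhg, 0.21 over Pcdhb, 0.16 over Pcdha and 0.030 over the single-locus genes, beside -0.0048 over all genes. With an adjusted p under 0.05 and no limit on fold (limma over all genes, Benjamini-Hochberg adjustment), 17 members rose, or 25%, and 0 fell, against a background of 11.9% of all genes higher and 13.0% lower. The count of 17 became 0 with 18S ribosomal RNA as a covariate, where 0 of all genes passed. It was 10, or 14.7%, when only the 2 groups entered the fit, beside 8.16% of all genes higher and 4.8% lower. With values rescaled to the same sum per animal it became 0 higher and 27 lower (39.7%), where 66.0% of all genes were lower. The 17 were 11 of 22 Pcdhg genes, 3 of 21 Pcdhb genes, 1 of 14 Pcdha genes and 2 of 11 single-locus genes. As shares these were 50% of Pcdhg, 14.3% of Pcdhb, 7.14% of Pcdha and 18.2% of single-locus genes, so that Pcdhb lay near the background of 11.9% and Pcdha below it. The count of 17 and these shares also rested on single animals. Without the 28 dpi animal A3-3 alone, Pcdhgb1, Pcdhgb2, Pcdhgb7, Pcdhga7, Pcdhga9, Pcdhga12, Pcdhb5 and Pcdhb15 no longer passed the adjusted p. When a fold above 1.5 was required as well (genes called here), 3 members rose, Pcdha8, Pcdhgb5 and Pcdhga9, and 0 fell. That is 4.41% of the members, near the background of 4.64% in either direction and 4.15% higher. With a stricter limit of 1.5 on the log2 scale 0 members were called, beside 0.0941% of all genes higher and 0.00588% lower. The count of 3 rested on single animals, and it was 1 without the 28 dpi animal A3-3 and 5 without either the sham animal A12-3 or the 28 dpi animal A4-3. The 28 dpi and sham ranges did not overlap for 9 members, all higher and 0 lower, against 6.15% of all genes higher and 3.75% lower. Genes of 1 array share exons and are not independent of each other, and no test was made over the list.

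**Figure D2:**
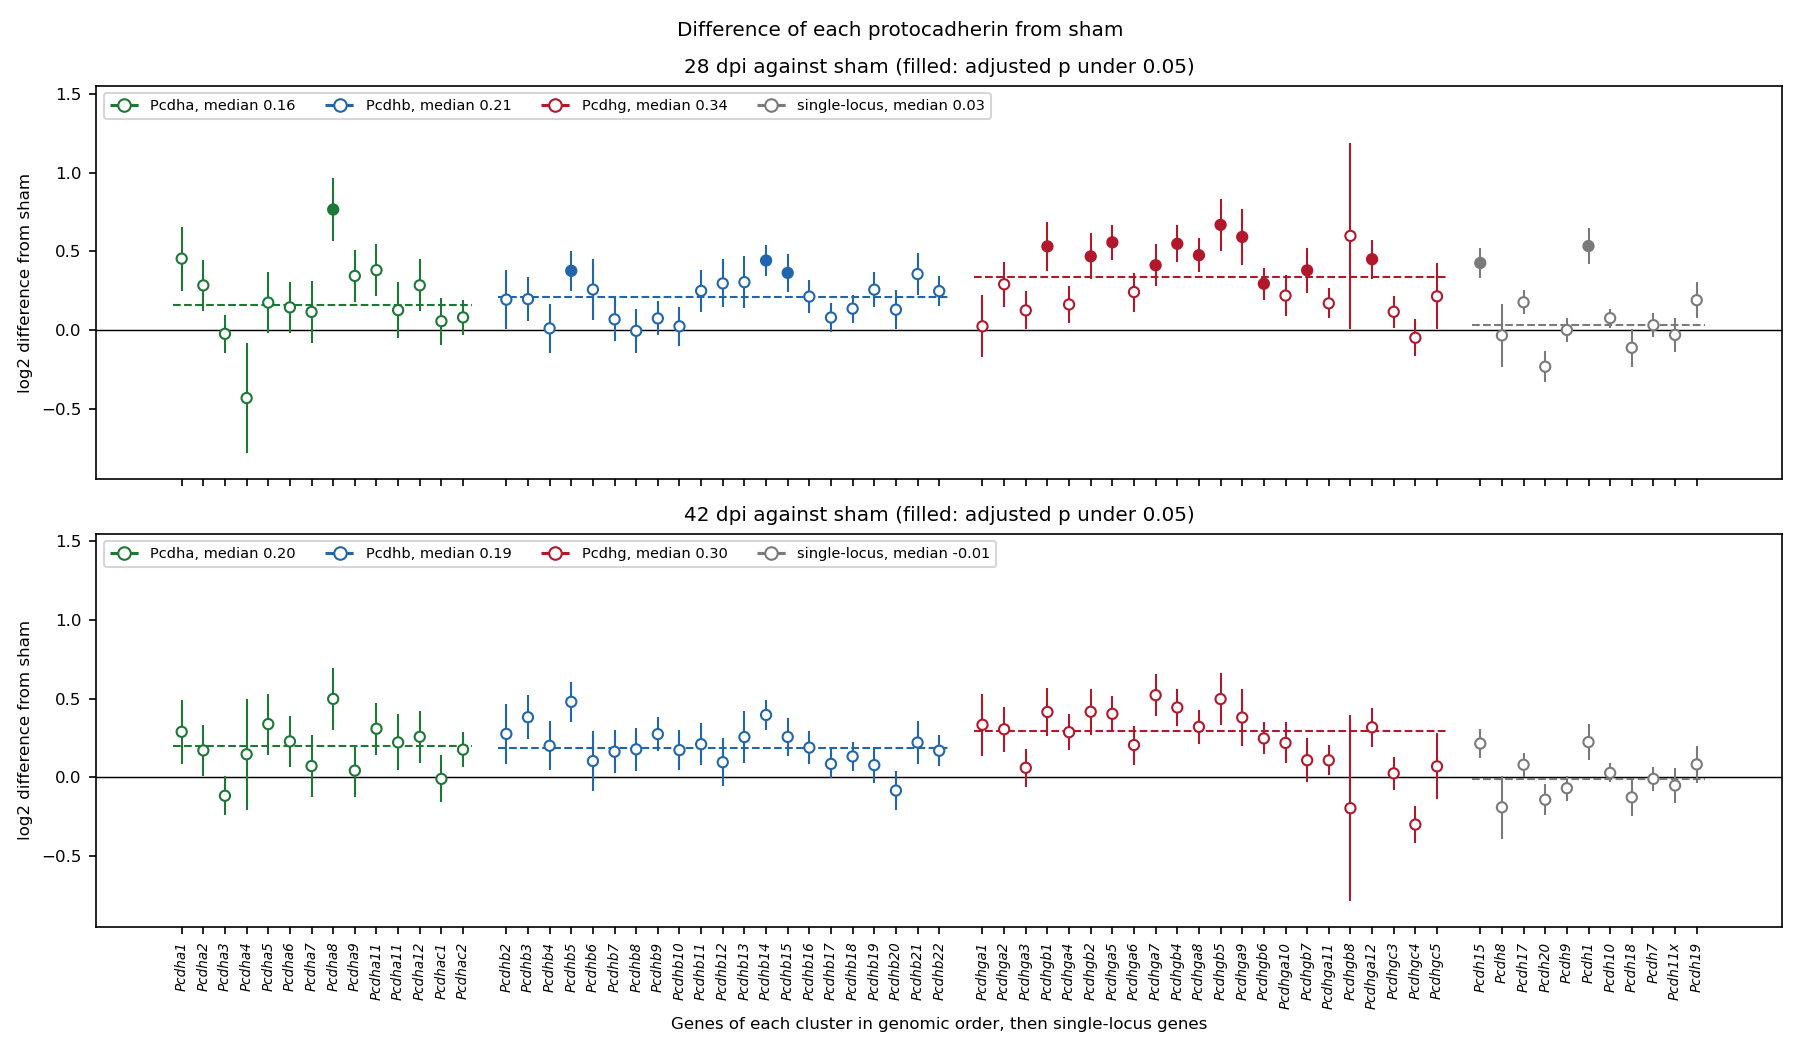
Log2 difference from sham at 28 dpi (top) and 42 dpi (bottom) for each protocadherin, in genomic order within each array, with bars for the standard error, dashed lines for class medians and filled points for an adjusted p under 0.05. The 17 filled points at 28 dpi all lie above 0 and 11 of them are Pcdhg genes, and no point is filled at 42 dpi.

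The summed values per animal put the largest ratio to sham in the Pcdhg array. The Pcdhg genes summed to 202, 207, 175, 206 and 192 in the sham animals and to 224, 270, 247, 222 and 260 at 28 dpi. The 5 sums at 28 dpi all lay above the 5 sham sums, and the mean was 1.25 times the sham mean. The Pcdhb genes summed to 126 to 151 in sham animals and 141 to 170 at 28 dpi, and the Pcdha genes to 82.7 to 107 and 96.4 to 124, so that the ranges overlapped in both arrays. With the C-type genes set aside the Pcdha sums did not overlap, at 46.5 to 55.0 in sham animals and 55.2 to 63.4 at 28 dpi. The single-locus genes summed to 821 to 943 in sham animals and 801 to 1018 at 28 dpi, with medians of 885 and 936 and overlapping ranges.

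**Figure D3:**
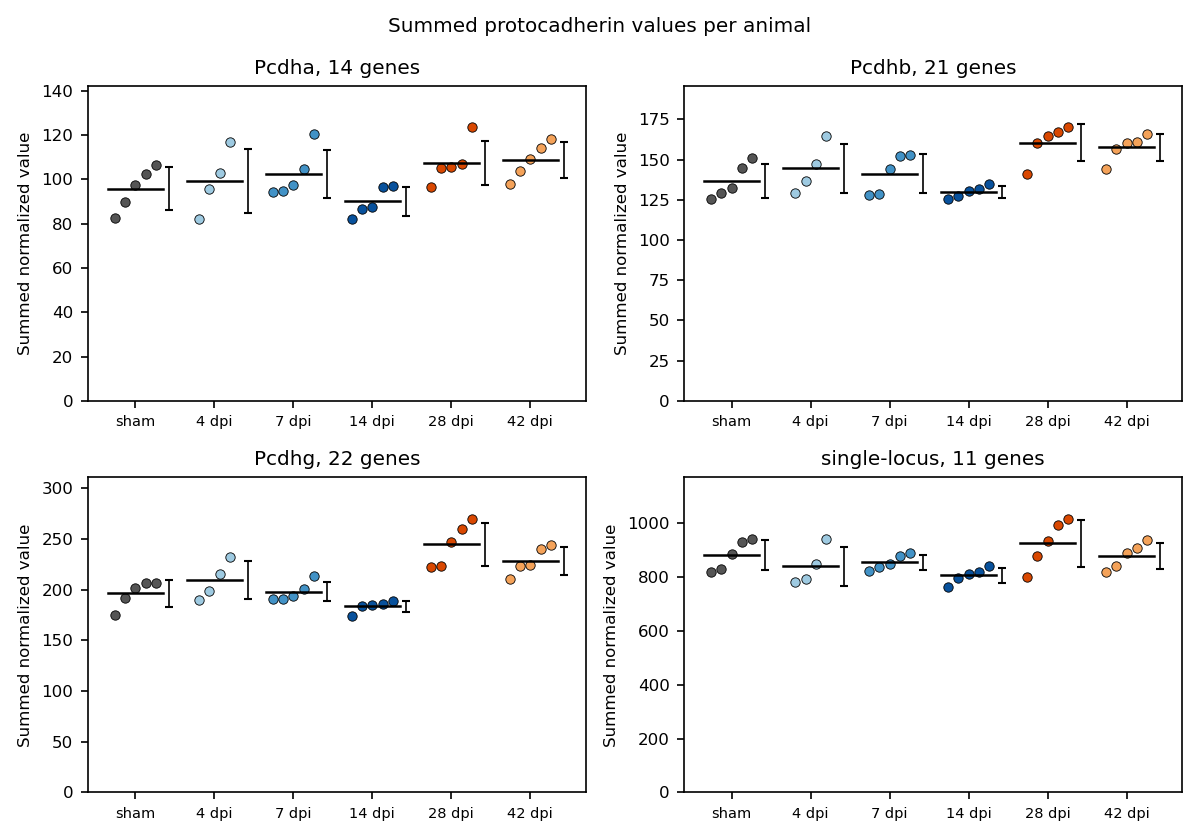
Summed normalized values of the genes of each class, with 1 point per animal, a line for the mean and a bar for the SD of each group. The Pcdhg sums of 28 dpi animals (222 to 270) and those of 42 dpi animals (211 to 244) lie above every sham sum (175 to 207), while the single-locus sums of sham and 28 dpi animals overlap.

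Pcdhgb5, an alternate gene in the middle of the Pcdhg array, had sham values of 6.4, 7.7, 5.5, 9.3 and 7.8 and 28 dpi values of 11.6, 16.7, 10.2, 10.4 and 11. The groups did not overlap, and the log2 difference was 0.67 (SE 0.17, adjusted p = 0.0057). Without A12-1 or A3-3 it fell short of the 1.5-fold limit, with log2 differences down to 0.55 and adjusted p up to 0.030 when 1 animal was left out. Pcdhga9, its neighbour downstream, had sham values of 6.3, 8.4, 4.7, 9.0 and 8.5 and 28 dpi values of 8.1, 14.9, 10.4, 9.6 and 13.8. Here 4 of 5 stroke animals lay above the sham range, with a log2 difference of 0.59 (SE 0.18, adjusted p = 0.018). It was no longer called without A11-1, A12-1, A3-3 or A4-4, with log2 differences down to 0.45 and adjusted p up to 0.082 when 1 animal was left out. Pcdha8 had sham values of 2.6, 2.3, 1.7, 1.6 and 3.4 and 28 dpi values of 4.3, 4.8, 3.9, 3.9 and 4.0. The groups did not overlap and the log2 difference was 0.76 (SE 0.20, adjusted p = 0.0074), at a low level in values that are rounded to 0.1.

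The Pcdhg genes that rose were spread along the array from Pcdhgb1 to Pcdhga12. They were 6 of 7 Pcdhgb genes (Pcdhgb1, Pcdhgb2, Pcdhgb4, Pcdhgb5, Pcdhgb6 and Pcdhgb7) and 5 of 12 Pcdhga genes (Pcdhga5, Pcdhga7, Pcdhga8, Pcdhga9 and Pcdhga12), with median log2 differences of 0.53 and 0.27 over the 2 subgroups. Of these, Pcdhgb7 no longer passed the adjusted p without any 1 of 18 animals (largest adjusted p = 0.14), Pcdhga7 without A11-1, A12-1, A3-3 or A4-4 (0.089), Pcdhgb6 without A12-1, A12-2, A4-1 or A4-4 (0.12), Pcdhgb1 and Pcdhgb2 without A12-1 or A3-3 (0.065 and 0.082) and Pcdhga12 without A3-3 (0.053). Pcdhgb4 had sham values of 8.5, 6.2, 6.5, 8.4 and 9.1 and 28 dpi values of 11, 14.1, 10.9, 9.3 and 12.3, again without overlap (log2 difference 0.55, SE 0.12, adjusted p = 0.0025). Pcdhga5, added here after its values were seen, had the smallest adjusted p of the family (log2 difference 0.56, SE 0.11, adjusted p = 0.0017). All 19 Pcdhg genes other than the C-type genes had a higher mean at 28 dpi, with log2 differences from 0.023 for Pcdhga1 to 0.67. Pcdhga11, the highest of these 19 in sham animals, had a log2 difference of 0.17 (SE 0.095, adjusted p = 0.19).

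The 5 C-type genes did not pass the test at 28 dpi, and their median log2 difference was 0.079. Pcdhgc3 had sham values of 31.4, 30.4, 30.8, 38.0 and 28.4 and 28 dpi values of 28.2, 38.2, 36.4, 28.7 and 42.2. The groups overlapped, with a log2 difference of 0.11 (SE 0.10, adjusted p = 0.43). Pcdhac2 (0.079, SE 0.11), Pcdhac1 (0.055, SE 0.15) and Pcdhgc5 (0.21, SE 0.21) were likewise below the threshold, and Pcdhgc4 had the only negative log2 difference of the Pcdhg array, -0.050 (SE 0.12, adjusted p = 0.79). The C-type genes summed to 84.6 to 110 in sham animals and 95.2 to 125 at 28 dpi, while the 19 other Pcdhg genes summed to 127 to 154 and 175 to 211. Whether the C-type genes differ in response from the other genes was not tested.

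In the Pcdhb array Pcdhb14, Pcdhb15 and Pcdhb5 rose. Pcdhb14 had sham values of 10.7, 12.2, 10.3, 11.1 and 12.6 and 28 dpi values of 14.3, 19.7, 13.3, 16.0 and 15.3, with no overlap (log2 difference 0.44, SE 0.097, adjusted p = 0.0031). Pcdhb15 and Pcdhb5, named after their values were seen, had log2 differences of 0.36 (SE 0.12, adjusted p = 0.029) and 0.38 (SE 0.13, adjusted p = 0.031). Pcdhb22 did not overlap between groups but missed the threshold (log2 difference 0.25, adjusted p = 0.062). The lowest log2 difference of the array was that of Pcdhb8, -0.0063 (SE 0.14). Pcdhb5 no longer passed without any 1 of 6 animals (A11-4, A12-2, A12-3, A3-1, A3-3 or A4-4, largest adjusted p = 0.10) and Pcdhb15 without any 1 of 4 (A12-1, A12-3, A3-3 or A4-3, largest adjusted p = 0.13), whereas Pcdhb14 passed whichever 1 of the 29 animals was left out. In the Pcdha array the genes besides Pcdha8 did not pass, and Pcdha4 had the lowest log2 difference of the family, -0.43 (SE 0.35, adjusted p = 0.37), with 28 dpi values of 4.0, 4.7, 1.1, 2.8 and 2.8 against 3.3 to 4.7 in sham animals.

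**Figure D4:**
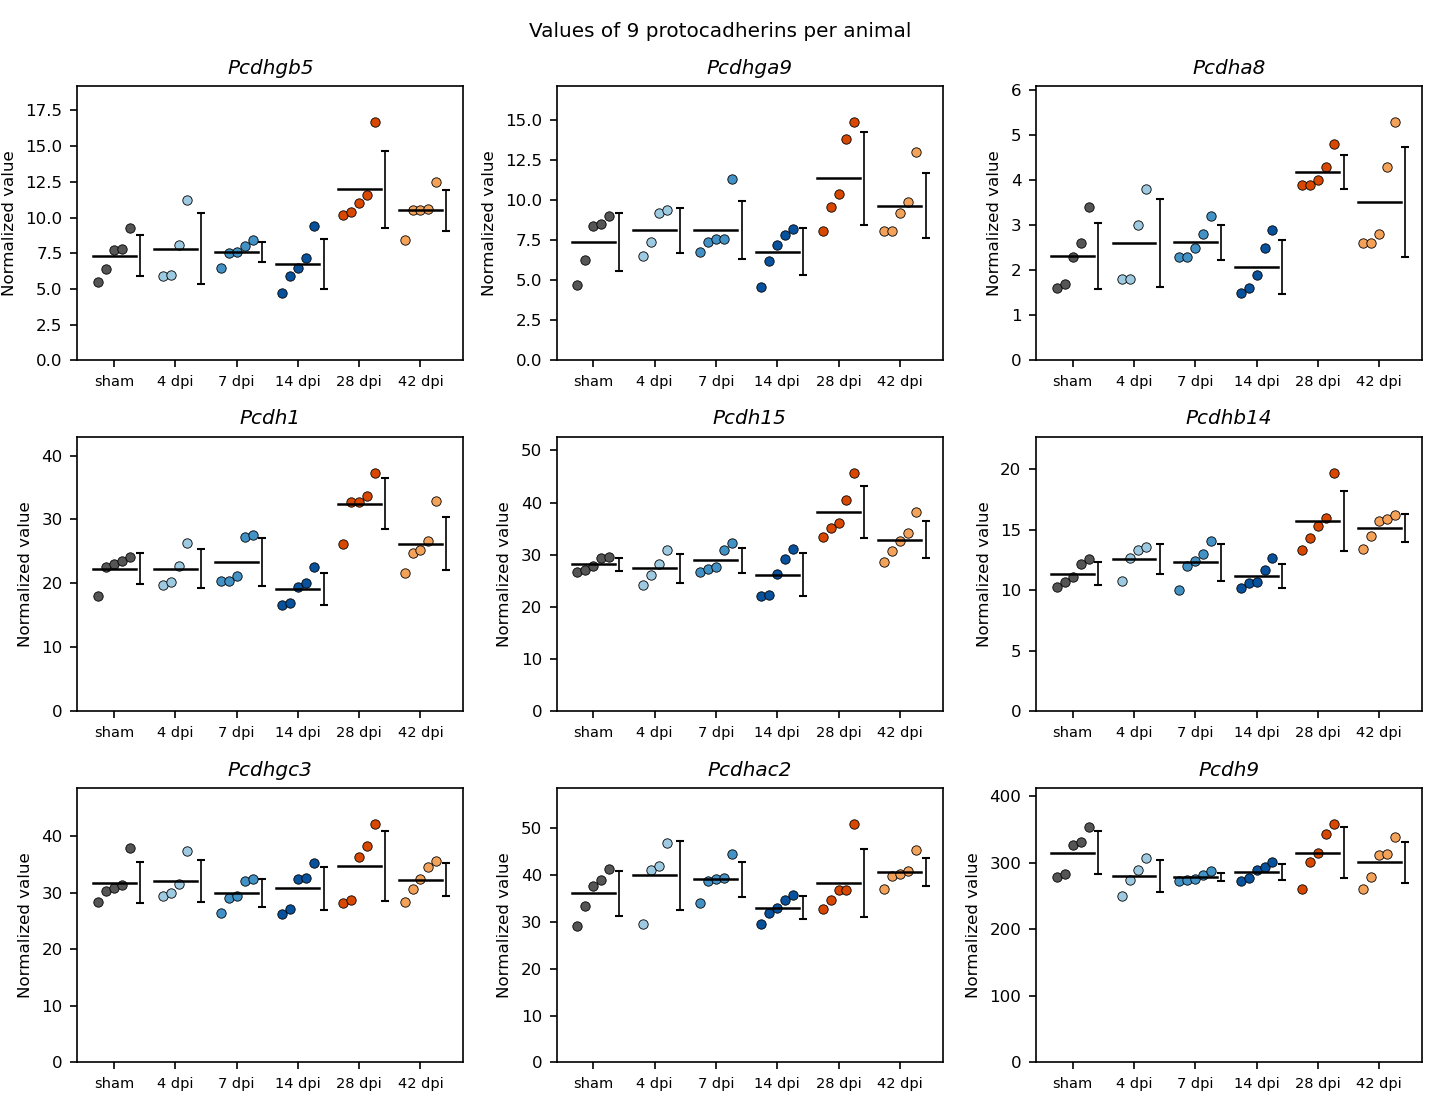
Normalized values of 9 protocadherins in each animal, with a line for the mean and a bar for the SD of each group. In Pcdhgb5, Pcdha8, Pcdh1, Pcdh15 and Pcdhb14 every 28 dpi animal lies above the sham animals, whereas Pcdhgc3, Pcdhac2 and Pcdh9 overlap between sham and 28 dpi.

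Among the single-locus genes Pcdh1 and Pcdh15 rose at 28 dpi. Pcdh1, a delta-1 protocadherin of neurons and epithelia whose gene lies beyond the Pcdhg array on the opposite strand, had sham values of 22.5, 23.5, 18.1, 23.1 and 24.2 and 28 dpi values of 26.1, 32.7, 32.7, 33.7 and 37.3. The groups did not overlap (log2 difference 0.53, SE 0.11, adjusted p = 0.0025). Pcdh15 had sham values of 29.4, 29.6, 26.7, 27.9 and 27.1 and 28 dpi values of 36.1, 45.7, 35.2, 40.4 and 33.4, also without overlap (log2 difference 0.42, SE 0.094, adjusted p = 0.0032). The genes with the highest levels did not pass the test. Pcdh9 had sham values of 354, 327, 284, 332 and 279 and 28 dpi values of 302, 315, 260, 359 and 343, a log2 difference of -0.00072 (SE 0.079). Pcdh7 (0.030, SE 0.077), Pcdh10 (0.074, SE 0.061), Pcdh11x (-0.032, SE 0.11), Pcdh18 (-0.11, SE 0.12) and Pcdh8 (-0.035, SE 0.20) did not pass either. Pcdh17 (0.18, SE 0.076, adjusted p = 0.086), Pcdh19 (0.19, SE 0.12, adjusted p = 0.23) and Pcdh20 (-0.23, SE 0.098, adjusted p = 0.078) did not pass.

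The ribosomal RNA values moved with the 28 dpi group, so the Pcdhg values are given beside them. The 28 dpi animal with 18S RNA in the sham range, A4-1, had a Pcdhg sum of 247, and its median log2 difference from the sham mean was 0.35 over Pcdhg but 0.041 over Pcdha and 0.031 over Pcdhb. The 14 dpi animals with the highest 18S values, A6-3 (817780) and A5-3 (419050), had Pcdhg sums of 189 and 174, inside or just under the sham range. High 18S values mostly went with the late groups, so group and 18S RNA cannot be told apart from these single animals. The part of 18S RNA in the Pcdhg values was not tested. With 18S RNA as a covariate 0 members and 0 of all genes passed at 28 dpi, and log2 differences of 0.47 for Pcdhgb5, 0.72 for Pcdhga9, 0.63 for Pcdha8 and 0.52 for Pcdh1 remained below the threshold (adjusted p = 0.17, 0.077, 0.14 and 0.060). Over the 17 members that had passed, log2 differences with the covariate ran from 0.19 for Pcdhb15 (adjusted p = 0.43), down from 0.36, to 0.72 for Pcdhga9. When values were rescaled to the same sum per animal, which lets the 18S RNA lower every other gene, the median of all genes moved to -0.71 and the Pcdhg median to -0.40, so that Pcdhg lay above the median gene and below sham. Oligodendrocyte markers also moved at 28 dpi, 3 of 4 lower (median log2 difference -0.43, summed value 4026 to 5983), and of 8 neuron markers 1 rose and 1 fell (median -0.15, summed value 1936 to 2480). Of 4 endothelium markers 2 rose (median 0.22), and of 5 astrocyte markers 1 rose and 2 fell (median -0.17). Of 5 microglia markers 1 rose (median 0.11), and of 4 meningeal fibroblast markers 1 rose (median 0.13). Of 3 pituitary markers 0 passed (median 1.00), but their summed value was 0.2 to 14.4 at 28 dpi, highest in A4-1, against 0.2 to 0.7 in sham animals, and it reached 17.3 at 4 dpi and 28 at 7 dpi. These counts stand beside 11.9% of all genes higher and 13.0% lower. Their part in the protocadherin values was not tested.

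**Figure D5:**
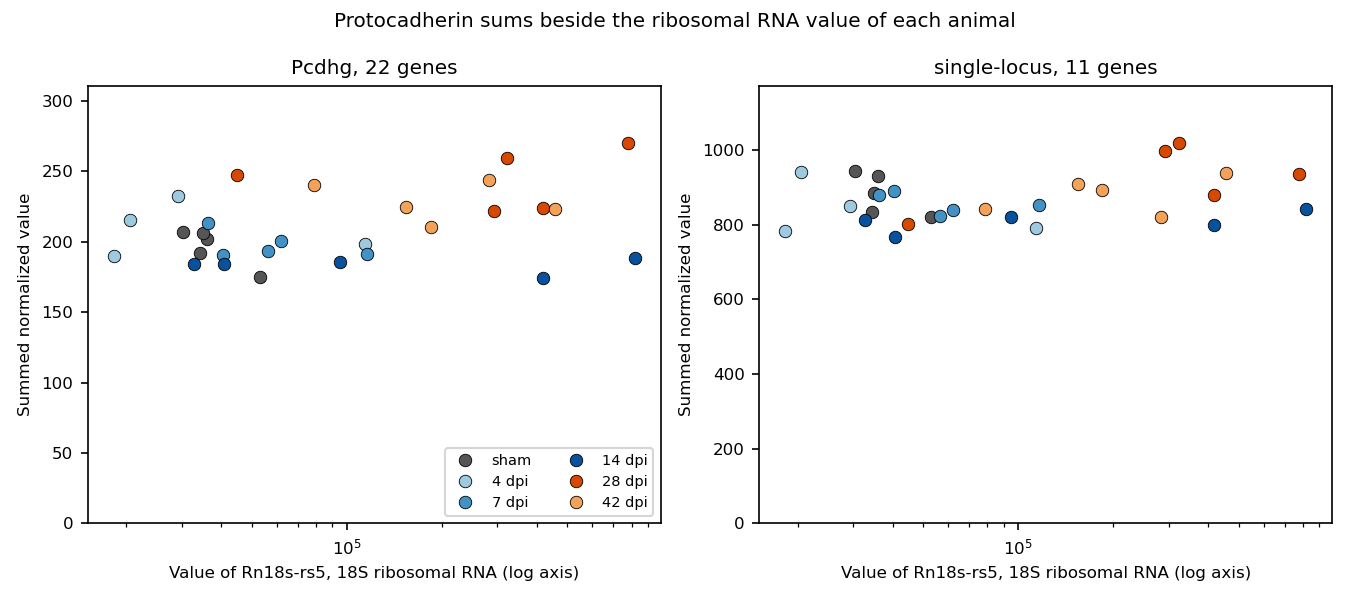
Summed normalized values of the Pcdhg genes (left) and the single-locus genes (right) against the value of Rn18s-rs5 (log axis), with 1 point per animal coloured by group. The 28 dpi animal at 44755 has a Pcdhg sum of 247, and the 14 dpi animals at 419050 and 817780 have sums of 174 and 189. The remaining 28 dpi animals lie above 150000.

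At 42 dpi the medians were close to those at 28 dpi, but no member passed. The median log2 difference from sham was 0.30 over Pcdhg, 0.19 over Pcdhb, 0.20 over Pcdha and -0.0088 over the single-locus genes, and 57 of 68 members had a higher mean. With values rescaled to the same sum per animal these medians turned negative or fell further, to -0.22, -0.30, -0.30 and -0.56 in that order. By limma 0 of 68 members were called, against a background of 0.0235%. At an unadjusted p under 0.05, 19 members were higher, or 27.9%, and 1 lower, against 8.40% and 6.35% of all genes. The lower member was Pcdhgc4 (-0.30, SE 0.12, adjusted p = 0.22). The groups did not overlap for 4 members, all higher (Pcdhb5, Pcdhb14, Pcdhga5 and Pcdhgb4), against 2.21% of all genes higher and 1.10% lower. The smallest adjusted p of the family was that of Pcdhb14, whose 42 dpi values of 14.5, 16.2, 15.7, 15.9 and 13.4 lay above the sham animals (log2 difference 0.40, SE 0.097, adjusted p = 0.0895). The Pcdhg sums were 244, 211, 241, 225 and 223, again above every sham animal. Both time points were compared with the same 5 sham animals. Animals A3-1 and A3-3 at 28 dpi and A3-4 at 42 dpi carry the same unit number. In the direct comparison of 42 dpi with 28 dpi 0 members were called (background 0.224%) or passed without a fold limit (background 1.94%), and at an unadjusted p under 0.05 there were 0 higher and 3 lower, Pcdh1 (-0.31), Pcdh15 (-0.21) and Pcdhgc4 (-0.25), against 12.3% and 8.82% of all genes.

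At the earlier times no member passed the test against sham. At 4, 7 and 14 dpi limma called 0 of 68 members, against backgrounds of 0.0941%, 0.0294% and 0.00588%. At an unadjusted p under 0.05 and 4 dpi, Pcdhgb2 (0.35) and Pcdhga5 (0.32) were higher and Pcdh20 (-0.26) and Pcdha11 of ENSMUSG00000007440 (-0.36) lower, beside 2.78% and 2.37% of all genes. At 7 dpi, Pcdhga7 (0.31) was higher and Pcdh9 (-0.17) and Pcdh20 (-0.23) lower, beside 2.22% and 3.61%. At 14 dpi 0 members were higher and 6 lower (Pcdh18, Pcdh19, Pcdh20, Pcdha3, Pcdhga11 and Pcdhgb7), beside 6.25% and 5.36%, with log2 differences from -0.25 for Pcdh20 to -0.38 for Pcdhgb7. The class medians at 4 dpi were 0.014 over Pcdha, 0.077 over Pcdhb, 0.095 over Pcdhg and -0.050 over the single-locus genes, and 18 of 21 Pcdhb and 18 of 22 Pcdhg genes had a higher mean than sham. At 7 dpi they were 0.12, 0.065, 0.026 and 0.028. The Pcdhg sums lay above every sham sum in 2 of 4 animals at 4 dpi, in 1 of 5 at 7 dpi and in 0 of 5 at 14 dpi. The class medians at 14 dpi were all negative, -0.091 over Pcdha, -0.059 over Pcdhb, -0.083 over Pcdhg and -0.13 over the single-locus genes, and all 11 single-locus genes were below sham. Members named for the early times were chosen after their values were seen.

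In the direct comparison of 28 dpi with 14 dpi more members passed than against sham, and both comparisons use the same 28 dpi animals. Between 28 and 14 dpi 10 members were called, all higher, or 14.7%, against a background of 11.8% in either direction and 7.56% higher. With no limit on fold 32 members rose, or 47.1%, and 0 fell, against 21.0% and 21.9% of all genes. The 32 comprised 14 of 22 Pcdhg, 9 of 21 Pcdhb, 4 of 14 Pcdha and 5 of 11 single-locus genes (Pcdh1, Pcdh10, Pcdh15, Pcdh17 and Pcdh19), and 0 of 5 C-type genes. Class medians were 0.44, 0.31, 0.27 and 0.21 in that order, and that of all genes was 0.016. Without the 14 dpi animal A5-3 the count of called members was 6, and with the limit of 1.5 on the log2 scale it was 1, Pcdhgb8. It was 1 with values rescaled to the same sum, 5 with a length and GC correction and 2 with the 10 animals over 150000 in 18S RNA left out. The 10 were Pcdha1, Pcdha8, Pcdhga9, Pcdhgb1, Pcdhgb2, Pcdhgb4, Pcdhgb5, Pcdhgb7, Pcdhgb8 and Pcdh1.

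Pcdh1 had 14 dpi values of 20, 19.4, 16.9, 16.6 and 22.6, all below the 28 dpi values (log2 difference 0.75, SE 0.11, adjusted p = 2.8e-05). Pcdhgb7 had 14 dpi values of 7.7, 6.4, 6.0, 5.4 and 6.4 and 28 dpi values of 9.2, 11.9, 11, 13.7 and 9.9, without overlap (log2 difference 0.75, SE 0.14, adjusted p = 0.00014). Its difference from sham at 28 dpi was smaller (0.38, adjusted p = 0.048), since 14 dpi was itself below sham. Pcdhgb8 had the largest log2 difference, 1.66 (SE 0.59, adjusted p = 0.024), but was listed at 0 in 2 of 5 animals at 14 dpi and ranged from 0 to 2.2 there and from 1.5 to 5.4 at 28 dpi. With a pseudocount of 0.05 its log2 difference became 3.04 and with 1 it became 1.24, and it was no longer called without A5-3, A5-4 or A4-1 (largest adjusted p = 0.078). The other called members were Pcdha8 (0.89, SE 0.20), Pcdhgb5 (0.79, SE 0.17), Pcdhga9 (0.69, SE 0.18), Pcdha1 (0.68, SE 0.20), Pcdhgb2 (0.67, SE 0.15), Pcdhgb1 (0.62, SE 0.16) and Pcdhgb4 (0.59, SE 0.12). Pcdh1, Pcdha8, Pcdhgb5 and Pcdhgb7 were called whichever animal was left out. Pcdha1 was no longer called without A3-3, Pcdhga9 without A5-3, Pcdhgb2 without A6-3, Pcdhgb1 without A5-3, A3-3 or A4-4, and Pcdhgb4 without A5-3, A5-4, A3-3 or A4-4, with log2 differences down to 0.57, 0.57, 0.55, 0.52 and 0.51.

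Partners of the protocadherins were counted from lists of genes that act on or below them. Of 16 cytoplasmic partners, which include kinases bound by the shared tails and the WAVE complex that branches actin, 3 rose, namely Wasf1 (0.44), Wasf2 (0.34) and Cyfip2 (0.22), and 4 fell, namely the kinase Fyn (-0.19), the GTPase Rac1 (-0.25) and the WAVE complex members Abi1 (-0.25) and Brk1 (-0.34). Of 7 adhesion and cleavage partners 2 rose, the postsynaptic adhesion genes Nlgn2 (0.47, SE 0.13, adjusted p = 0.010) and Nlgn3 (0.26, SE 0.083, adjusted p = 0.025), and 0 fell. Of all genes 11.9% were higher and 13.0% lower by the same rule, and with 18S RNA as a covariate 0 of all genes passed. The median log2 differences of the 2 lists were -0.033 and 0.091. At 4, 7, 14 and 42 dpi 0 genes of these lists passed against sham.

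Within groups, the values of different protocadherins were weakly correlated over animals. After group means were removed, the median correlation between pairs of genes over 29 animals was 0.14 within Pcdhg, 0.15 within Pcdha, 0.18 within Pcdhb and 0.27 within the single-locus genes. Between classes the medians ran from 0.095 (Pcdhg with single-locus genes) to 0.17 (Pcdhb with single-locus genes), so they overlapped those within arrays. The correlation over pairs of all genes was not computed. These are descriptions over animals that share a scaling and, within Pcdha and Pcdhg, reads from shared exons.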

How the data were processed

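RNA from 30 labelled animals was sequenced by the authors, and values were deposited for 29 of them, 1 column per animal (the animal A9-3 at 4 dpi has none). According to the study's methods, reads were quantified per transcript with SALMON on mm10, summed per gene with Tximport and normalized with edgeR 3.14.0 under R 3.4.1, per the labels. The deposited values are a normalized score per gene, rounded by the authors to 0.1 and filtered for low expression, whose column sums differ between animals, so the depth is unknown and no counting intervals are given.

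Values were tested on the scale log2(value + 0.5), which understates changes of low genes, with limma 3.58.1 (R 4.3.3) over all 16995 genes and 29 animals, with 1 mean per group, a trended prior spread and Benjamini-Hochberg adjustment over all genes. A called gene passed an adjusted p of 0.05 and changed more than 1.5-fold. The study states a log2 change of 1.5 as its limit, which was tried as an alternative. It also describes Sema6a and TGF-β1, which it lists as changed, as 1.5-fold higher, so the limit behind its list is unclear here. The p-values measure the spread between animals, each 1 library. The script was tested on simulated data. Named genes were members called in a comparison, the 3 highest and the lowest sham values and the largest rise and fall at 28 dpi in each class, and all C-type and single-locus genes. Members and lists were chosen with earlier results of these data known. Transcript lengths and shared words came from GENCODE M21 on GRCm38. Alternatives were other pseudocounts, filters, scalings, covariates and sample sets. Python 3.11.15 was used for summaries. A list of chromatin genes holds an item that is not reported here and was left out.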

Additional observations from a re-analysis of the deposited data

Results flagged for a closer look

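For the 34 named protocadherins and the sums of 3 arrays, 222 groups of 4 or 5 animals were searched for an animal far from the others of its group (Dixon's criterion), and 10 groups in 9 genes held one, or 4.5%, where chance gives about 1 in 20. In sham animals these were Pcdh1 in A12-1 (18.1, the nearest animal 22.5) and Pcdh7 in A11-4 (236.8, nearest 219.6). At 7 dpi they were Pcdh7 in A7-3 (293.5, nearest 228.1) and 3 genes in A7-2, namely Pcdh10 (83.2, nearest 89.8), Pcdha6 (4.1, nearest 6.7) and Pcdhga9 (11.3, nearest 7.6). At 28 dpi they were Pcdha1 (3.9, nearest 2.7) and Pcdhgb5 (16.7, nearest 11.6) in A3-3 and Pcdhac2 in A4-4 (50.9, nearest 36.8). At 42 dpi Pcdh17 stood apart in A3-4 (110.9, nearest 95.1).

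The difference between 28 and 14 dpi itself passed limma's test over all genes with a fold above 1.5 for 10 protocadherins, all higher at 28 dpi. That is 14.7% of the members, against 11.8% of all genes in either direction and 7.56% higher. On the log2 scale the differences were 0.68 for Pcdha1, 0.89 for Pcdha8, 0.62 for Pcdhgb1, 0.67 for Pcdhgb2, 0.59 for Pcdhgb4, 0.79 for Pcdhgb5, 0.69 for Pcdhga9, 0.75 for Pcdhgb7, 1.66 for Pcdhgb8 and 0.75 for Pcdh1.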

How the results depend on the processing

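Of 293 alternative values of the class medians and counts of called members, 265 stayed close to the main value. Close means equal or within 1.5 times for a count, and a move below the SD of the stroke group's animals for a median. Direction was not checked, and counts of 0 that stayed 0 are among the 265. At 28 dpi against sham the count of 3 called members became 26 (all lower, where 63.9% of all genes were called lower) with values rescaled to the same sum, 0 with 18S RNA as a covariate, 0 with the 10 animals over 150000 left out (chosen after seeing the data, which leaves 1 animal at 28 dpi, assumed to vary like the others) 17 with no fold limit and 0 with a log2 change above 1.5 (also chosen after seeing the data). The count of 10 at 28 against 14 dpi became 1 with the same sum, 5 with a length and GC correction, 2 with the 10 animals left out, 32 with no fold limit and 1 with a log2 change above 1.5. Leaving out 1 animal gave 1 to 5 and 6 to 12 called members in these comparisons, and medians of -0.050 to 0.055 over the single-locus genes at 7 dpi. With the same sum, medians over Pcdha, Pcdhb, Pcdhg and single-locus genes were -0.54, -0.52, -0.56 and -0.63 for 14 dpi. They were -0.52, -0.51, -0.40 and -0.71 for 28 dpi, -0.30, -0.30, -0.22 and -0.56 for 42 dpi, and -0.042 over the single-locus genes for 7 dpi. The Pcdha median at 28 dpi was 0.28 with the 18S covariate and 0.041 with the 10 animals left out, where the Pcdhb median was 0.031. With the length and GC correction 14 members passed higher at 28 dpi with no fold limit and 2 lower (Pcdh11x and Pcdh20, named after their values were seen), beside 8.91% and 18.5% of all genes, and the single-locus median was -0.087 at 28 dpi and -0.098 at 42 dpi. The same sum moved the median of all genes at 28 dpi to -0.71 and with it turned 16 of the 17 members that passed, with log2 differences of -0.35 for Pcdh15, -0.31 for Pcdhb5, -0.32 for Pcdhb14, -0.36 for Pcdhb15, -0.20 for Pcdhgb1, -0.26 for Pcdhgb2, -0.18 for Pcdhga5, -0.33 for Pcdhga7, -0.20 for Pcdhgb4, -0.28 for Pcdhga8, -0.081 for Pcdhgb5, -0.15 for Pcdhga9, -0.46 for Pcdhgb6, -0.36 for Pcdhgb7, -0.29 for Pcdhga12 and -0.24 for Pcdh1. Apart from the fewer animals and the other fold limits, the cause was not tested. No paired analysis was possible because the labels give groups no shared replicate numbers, and only 1 unit, A3, spans groups (28 and 42 dpi). With the unit number of the animal as a random block, 3 members were called at 28 dpi. Depth is unknown, and low genes are limited by rounding to 0.1.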
